A study of Mus musculus with 33 samples.

Results

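A set of 10 genes of histone H3 lysine 9 (H3K9) methylation and its readout was followed across a reprogramming time course of mouse fibroblasts: Trim28, Setdb1, Setdb2, Ehmt1, Ehmt2, Suv39h1, Suv39h2, Cbx1, Cbx3 and Cbx5. They were taken by symbol from a table of 37973 genes, and each of the 10 symbols matched 1 row. All 10 were expressed above the filter used for testing in each comparison. The cells were primary mouse embryonic fibroblasts of 14 to 15 dpc (days after conception) with the genotype Col1a1-OSKM+/-, Rosa26-rtTA+/- and Oct4-GFP+/-, in which doxycycline at 1 µg/ml switches on a cassette of Oct4, Sox2, Klf4 and Myc (OSKM). One arm overexpressed Dppa2 and Dppa4 together (Dppa2/4) from lentivirus and the second arm served as control. On days 2, 4, 8, 11 and 14 the cells were sorted by Thy1, a fibroblast surface antigen, by SSEA1, a carbohydrate antigen gained early in reprogramming, and by the Oct4-GFP reporter, which turns on late. The gates were Thy1+SSEA1-, Thy1-SSEA1-, Thy1-SSEA1+ and GFP+, with Thy1+SSEA1+ cells of the Dppa2/4 arm alone on days 2 and 4. Polyadenylated RNA of 30 OSKM libraries (13 control and 17 Dppa2/4) and of 2 day 2 libraries titled rtTA-MEF, 1 of each arm and without the OSKM allele, gave a value per gene in FPKM (fragments scaled to transcript length in kilobases and to the mapped fragments of the library), which allows levels of different genes to be compared per length.

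Methylated H3K9 marks silent chromatin. SETDB1 methylates H3K9 at endogenous retroviruses and imprinted loci, to which TRIM28 (also called KAP1) brings it after binding zinc finger proteins of the KRAB family. EHMT1 (GLP) and EHMT2 (G9a) work as a pair and methylate H3K9 in euchromatin, SUV39H1 and SUV39H2 methylate it in the heterochromatin around centromeres, and SETDB2 is a less studied relative of SETDB1. The heterochromatin proteins HP1 beta (Cbx1), HP1 gamma (Cbx3) and HP1 alpha (Cbx5) bind the methylated residue. In fibroblasts H3K9 methylation is known as a barrier that reprogramming factors have to overcome, while pluripotent cells need Trim28 and Setdb1 to keep retroviral elements silent.

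The starts of 5 of these genes are shown because their RNA moved in opposite directions in the comparisons below: Trim28 and Setdb1 against Setdb2 between the arms, and Suv39h1 against Suv39h2 between gates. Each stretch is RefSeq sequence of build GRCm38.p6, taken from the 250 bases before an annotated start and cut back to bases outside exons of protein-coding genes, and is printed 5′ to 3′ on the strand of its gene. Capitals mark matches on either strand to 6 short motifs that are given after the sequences. Suv39h1 has a further annotated start, whose stretch at chrX:8074362-8074543 is not shown.
Trim28, chr7:13023902-13024151, plus strand, within the Trim28 gene of GENCODE, outside its exons, where the annotated gene begins further upstream than the RefSeq start.
Trim28: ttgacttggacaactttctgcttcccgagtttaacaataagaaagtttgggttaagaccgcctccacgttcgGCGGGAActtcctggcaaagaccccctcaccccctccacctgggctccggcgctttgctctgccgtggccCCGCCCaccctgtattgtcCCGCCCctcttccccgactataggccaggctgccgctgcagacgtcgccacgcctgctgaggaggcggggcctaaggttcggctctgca
Setdb1, chr3:95357203-95357452, minus strand, overlapping an exon of Gm37500 on the other strand.
Setdb1: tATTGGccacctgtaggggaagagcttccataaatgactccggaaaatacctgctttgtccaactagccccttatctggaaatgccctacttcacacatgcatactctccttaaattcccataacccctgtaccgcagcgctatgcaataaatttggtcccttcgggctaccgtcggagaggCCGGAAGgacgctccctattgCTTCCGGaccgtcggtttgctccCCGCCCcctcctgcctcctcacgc
Setdb2, chr14:59440885-59440971, minus strand, between the divergent genes Setdb2 and Cab39l.
Setdb2: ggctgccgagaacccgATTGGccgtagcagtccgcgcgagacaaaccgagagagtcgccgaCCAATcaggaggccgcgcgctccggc
Suv39h1, chrX:8074761-8075010, minus strand, upstream of the annotated gene.
Suv39h1: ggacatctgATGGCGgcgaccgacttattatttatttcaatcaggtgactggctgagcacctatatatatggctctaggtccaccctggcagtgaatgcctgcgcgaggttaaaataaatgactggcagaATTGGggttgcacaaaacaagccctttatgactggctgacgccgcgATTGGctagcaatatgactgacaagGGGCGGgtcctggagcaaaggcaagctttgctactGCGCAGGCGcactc
Suv39h2, chr2:3475032-3475236, minus strand, upstream of the annotated gene.
Suv39h2: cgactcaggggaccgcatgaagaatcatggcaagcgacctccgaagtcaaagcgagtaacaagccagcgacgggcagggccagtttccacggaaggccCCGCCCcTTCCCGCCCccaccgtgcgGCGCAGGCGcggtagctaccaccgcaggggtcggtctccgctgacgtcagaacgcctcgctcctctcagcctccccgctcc

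The capitals stand for GGGCGG (an Sp/Klf box), TTCCCGC (an E2F core), CCGGAAG (ETS), CCAAT (NFY), ATGGCG (YY1) and GCGCANGCG (NRF1), each searched on both strands. TTCCCGC was found in the 250-base windows of Trim28 and Suv39h2 and of no other member, and in 3.82% of 32851 windows of all genes. In Suv39h2 its last bases overlap a GGGCGG match. CCGGAAG stood at 2 places before Setdb1 and in no other member, against 6.91% of all windows. GGGCGG was present in 9 of the 10 members, all but Setdb2, which is 12 of their 14 windows, and in 32.7% of all windows. GC content was 49.6% to 84.0% in the windows of the members, against a median of 52.4% for all windows, and was not matched. The Setdb2 window held CCAAT at 2 places, a motif of 33.8% of all windows that was also found for Cbx5, Setdb1 and Suv39h1. The octamer ATGCAAAT that Oct4 recognises was in no member's window and in 1.60% of all windows. These are matches of letters and were not tested as binding sites.

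Trim28 was by far the most abundant of the 10, with a median of 397 FPKM over the 30 OSKM libraries and a range of 155 to 1822 FPKM. The HP1 genes and Ehmt2 followed at medians of 57.9 (Cbx3), 51.8 (Cbx1), 49.9 (Cbx5) and 47.9 FPKM (Ehmt2). Ehmt1, Suv39h1 and Setdb1 had medians of 24.5, 22.7 and 21.7 FPKM. Suv39h2 and Setdb2, each the scarcer member of its pair, had medians of 7.51 and 4.94 FPKM. The spread between libraries was widest for Trim28 and Suv39h2, whose highest library exceeded the lowest 11.8-fold and 11.6-fold, and narrowest for Suv39h1 at 2.40-fold and Cbx3 at 2.71-fold. Trim28, Cbx1 and Setdb1 peaked in the same library, control GFP+ cells of day 11, which was the library with the least Suv39h1. The description of that library names another gate, and it was used as titled. The plot of levels by gate shows all values.

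**Figure D1:**
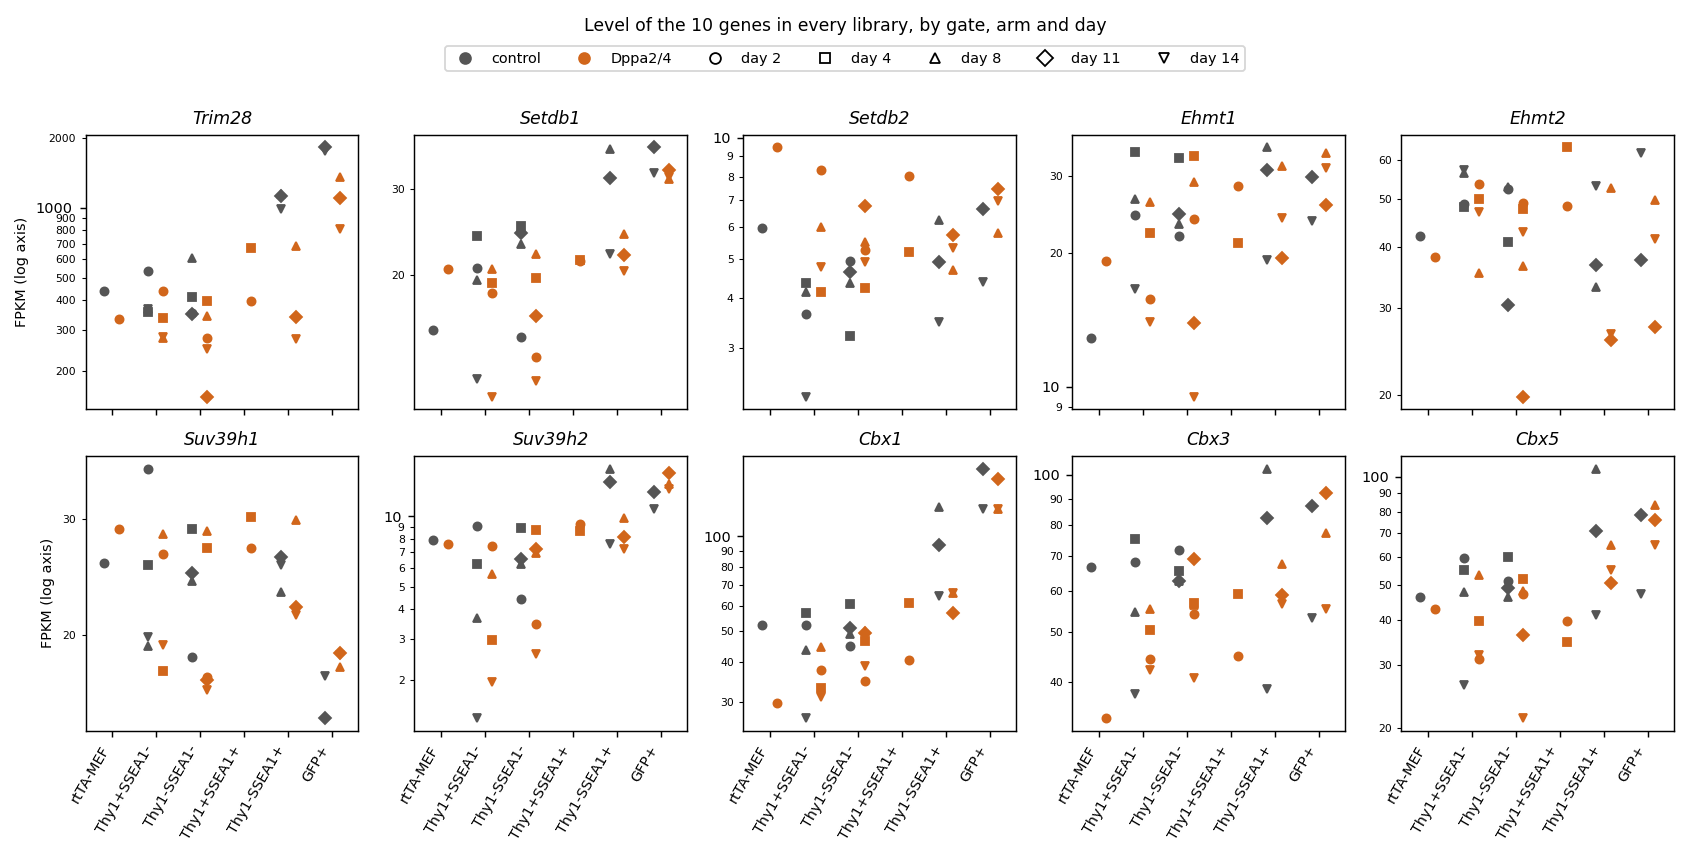
FPKM of each gene (log axis) in every library by gate, with control libraries in grey, Dppa2/4 libraries in orange and the day given by the symbol. The medians of Trim28 and Cbx1 are highest in GFP+ cells, that of Suv39h1 is lowest there, and Trim28 of the control arm lies above that of the Dppa2/4 arm in Thy1-SSEA1+ and GFP+ cells.

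There was 1 library for each combination of arm, day and gate, so groups had no replicates, and the tests below (limma on log2(FPKM + 1), p-values adjusted by Benjamini-Hochberg over all genes tested, threshold 0.05) ask whether a difference recurred over matched days, gates or arms. Nothing in the labels says that days or gates came from separate transductions. Implied depth of the OSKM libraries was 21.6 to 43.2 M fragments (M, mega-), and of the rtTA-MEF pair 16.2 and 13.8 M. The gates carried their markers: Nanog was 259.8 to 360.3 FPKM in GFP+ cells against 1.42 to 4.69 FPKM in Thy1+SSEA1- cells, and Thy1 fell from 195 to 749 FPKM in the latter to 4.71 to 9.77 FPKM in GFP+ cells, while Thy1-SSEA1- libraries still held 39.5 to 230 FPKM. In the arm labelled Dppa2/4, Dppa2 was 43.2 to 612 FPKM in all but 1 of the 17 OSKM libraries. The library labelled Dppa2/4 day 4 Thy1+SSEA1- had 0.354 FPKM, as low as controls of that gate, so the calls of members between arms are given with and without it. In GFP+ cells Dppa2 was 45.4 and 66.1 FPKM in control and 49.3 to 61.5 FPKM in Dppa2/4 libraries, so the arms overlapped. The GFP+ pairs stayed in the comparison of arms, and calls without both of them are not given. Ptprc, which marks blood cells, Cdh5 of endothelium and Krt5 of keratinocytes stayed below 1 FPKM in all 32 libraries. Other markers of these cell types did not. Of macrophage genes, Adgre1 reached 1.00 FPKM and Csf1r 2.57 FPKM, each in 1 library, and Cd68 up to 82.6 FPKM with all 32 above 1. Krt14 was at 1 FPKM or more in 2 libraries (up to 1.66), Kdr in 3 (5.86) and Pecam1 in 12 (65.0). In such bulk samples, fewer cells of a type and less RNA per cell cannot be told apart.

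With Dppa2/4, Trim28 and Setdb1 fell and Setdb2 rose relative to control. Over 13 combinations of day and gate with both arms, Trim28 RNA was lower by 0.75 on the log2 scale, 1.68-fold, Setdb1 by 1.17-fold, and Setdb2 was 1.26-fold higher. The remaining 7 genes, the Ehmt, Suv39h and HP1 genes, did not pass the threshold. Of all 16835 genes tested, 15.6% were called higher and 7.75% lower, so that 1 of 10 members higher and 2 of 10 lower is not far from the background. The median change of the 10 was -0.16, against 0.03 for all genes. Of 9 markers of gates and reprogramming, 3 were called higher (Dppa2, Dppa4 and Fut9) and 1 lower (Col1a1). The median change of the 9 was -0.23, and Thy1, Nanog, Zfp42, Esrrb and Col1a2 did not pass. Fut9, which makes the SSEA1 antigen, was higher with Dppa2/4 by 0.44 (SE 0.12, limma adjusted p = 0.0171; 10 of 13 pairs). That call was lost in 2 of 21 alternatives, quantile normalization and the fit with no block (adjusted p up to 0.704). The fibroblast collagen gene Col1a1 changed by -0.79 (SE 0.24, adjusted p = 0.0304; lower in 10 of 13), a call lost in 7 of 22 alternatives. The part of these markers in the changes of the members was not tested.

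In Thy1+SSEA1- cells, control libraries of days 2, 4, 8 and 14 had 536, 357, 368 and 368 FPKM of Trim28, and those labelled Dppa2/4 had 441, 338, 275 and 279 FPKM. In Thy1-SSEA1- cells of days 2, 4, 8 and 11, control values were 352, 413, 607 and 349 FPKM and Dppa2/4 values 277, 398, 343 and 155 FPKM. In both of these gates the ranges of the arms overlapped, although control was the higher of each matched pair. In Thy1-SSEA1+ cells, controls of days 8, 11 and 14 had 1145, 1119 and 991 FPKM, and Dppa2/4 cells 685, 338 and 273 FPKM. The Dppa2/4 cells of days 11 and 14 were thus within the range of their own SSEA1- gates. In GFP+ cells, controls of days 11 and 14 had 1822 and 1752 FPKM, and Dppa2/4 cells of days 8, 11 and 14 had 1357, 1104 and 808 FPKM. In the Thy1-SSEA1+ and GFP+ gates the arms did not overlap. Fitted over the 13 pairs, the Trim28 change was -0.75 (SE 0.15, limma adjusted p = 0.00375), with control higher in 13 of 13, and -0.80 (adjusted p = 0.00271) when the library labelled Dppa2/4 day 4 Thy1+SSEA1- was left out.

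The Trim28 difference was -1.23 (SE 0.19) over the SSEA1+ and GFP+ gates together, although Dppa2 of the arms overlapped in GFP+ cells. It was -0.45 (SE 0.15) over the SSEA1- gates. The test of the difference between these, -0.79 (SE 0.24), did not pass the threshold (limma adjusted p = 0.117). None of the other 9 members passed that test either, with differences between gates of -0.21 to 0.17. In it, 0.511% of genes were called higher and 0.505% lower. 

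Setdb1 was lower with Dppa2/4 in 12 of 13 pairs, with a change of -0.22 (SE 0.07, limma adjusted p = 0.0249), and -0.22 (adjusted p = 0.0382) if the library with control-level Dppa2 was dropped. In Thy1-SSEA1+ cells of days 8, 11 and 14 it was 36.2, 31.7 and 22.1 FPKM in control and 24.3, 22 and 20.4 FPKM with Dppa2/4, and in Thy1-SSEA1- cells of days 2, 4, 8 and 11 it was 15.0, 25.2, 23.1 and 24.4 FPKM in control and 13.6, 19.7, 22.2 and 16.5 FPKM with Dppa2/4. The arms overlapped in both gates, and the exception among the pairs was day 8 in Thy1+SSEA1- cells, at 19.6 FPKM in control and 20.6 FPKM with Dppa2/4. The call was lost with the rtTA-MEF pair added (-0.18, adjusted p = 0.0908). It was also lost without the day 11 pair of Thy1-SSEA1- (adjusted p = 0.0530) or of Thy1-SSEA1+ cells (adjusted p = 0.0514). Setdb1 shares 324 exonic bases with Cers2 and Gm37500 on the other strand, and since the strand setting of the counting is not given in the sources used here, its reads cannot be fully told from theirs.

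Setdb2 moved the other way, by 0.34 (SE 0.10, limma adjusted p = 0.0296), higher in 11 of 13 pairs. In Thy1+SSEA1- cells of days 2, 4, 8 and 14 it was 3.66, 4.35, 4.13 and 2.28 FPKM in control and 8.29, 4.14, 6.01 and 4.78 FPKM in libraries labelled Dppa2/4. The one lower value in this gate was the library with Dppa2 at the control level, and without it the change was 0.37 (adjusted p = 0.0221). The other exception was day 8 in Thy1-SSEA1+ cells, at 6.23 FPKM in control and 4.70 FPKM with Dppa2/4. Leaving out 1 pair ended the call for 6 of 13 pairs: day 11 Thy1-SSEA1- (adjusted p = 0.0560), day 14 of GFP+ (0.0546), Thy1-SSEA1+ (0.0552) and Thy1+SSEA1- cells (0.0619), and days 2 (0.0507) and 8 (0.0513) of Thy1+SSEA1- cells. Quantile normalization ended it too, with a change of 0.23 (adjusted p = 0.147). As a share of Setdb1 and Setdb2 FPKM together, Setdb2 was higher with Dppa2/4 in 13 of 13 pairs, by 6.86 percentage points on average (SD 4.70, n = 13), a description that rests on the same values.

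**Figure D2:**
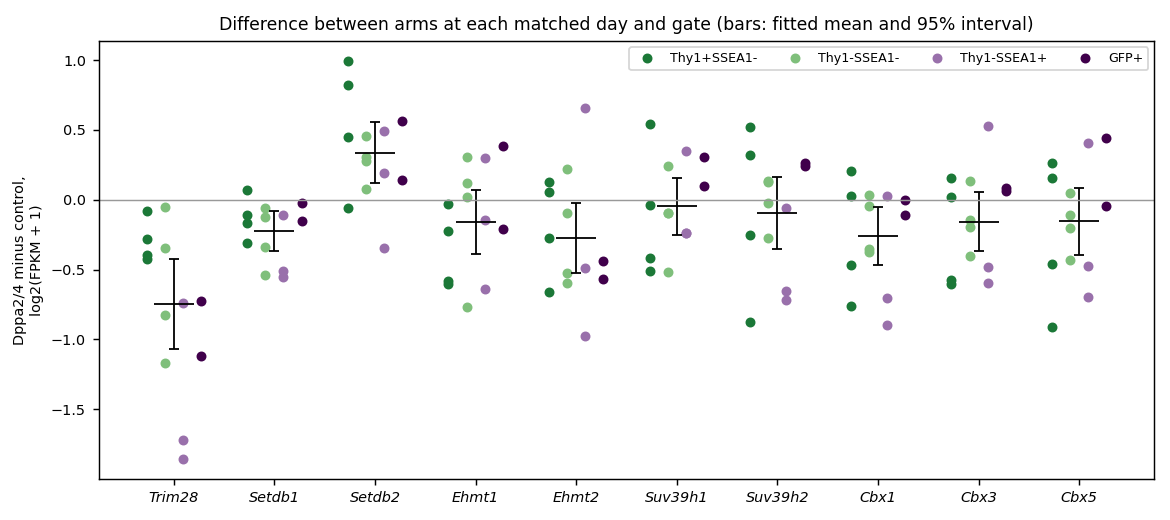
Difference in log2(FPKM + 1) between the Dppa2/4 and the control library of the same day and gate, 13 points a gene colored by gate, with the fitted mean and its 95% interval. All 13 Trim28 points lie below 0, those of Thy1-SSEA1+ and GFP+ cells between -1.86 and -0.72, while most genes have points on either side.

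Of the members that did not pass the test between arms, Cbx1 had a change of -0.26 (95% interval -0.47 to -0.05, limma adjusted p = 0.0643) and Ehmt2 of -0.27 (95% interval -0.53 to -0.02, adjusted p = 0.106). Cbx1 passed without the day 14 Thy1+SSEA1- pair (adjusted p = 0.0460) and with the rtTA-MEF pair added (0.0362), and Ehmt2 passed without the day 8 Thy1-SSEA1+ pair (0.0268). Changes of the other 5 ran from -0.16 (Ehmt1) to -0.05 (Suv39h1). In the rtTA-MEF pair, where the 2 libraries allow no test, control and Dppa2/4 values were 438 and 334 FPKM for Trim28. Setdb1 was higher with Dppa2/4 there, at 15.5 against 20.6 FPKM, unlike in the OSKM cells. Setdb2 was 5.97 in control and 9.47 FPKM with Dppa2/4, Cbx1 52.3 and 29.6 FPKM, and Cbx3 66.5 and 34.2 FPKM.

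Lists of genes that work with the members held 0 or 1 call each between the arms, where 15.6% of all genes were called higher and 7.75% lower. Of 9 tested H3K9 demethylases, Kdm7a, which removes methyl groups from H3K9 and H3K27, was higher by 0.51 (SE 0.17, limma adjusted p = 0.0398; higher in 9 of 13 pairs), a call lost in 12 of 22 alternatives, most of them the omission of a single pair of day 8, 11 or 14. Of 16 cofactors of Setdb1 and Trim28, Zfp809, a KRAB zinc finger protein that recruits Trim28 to retroviral DNA, was higher by 0.41 (SE 0.12, adjusted p = 0.0222; 11 of 13). The Zfp809 call was lost in 2 of 22 alternatives, quantile normalization and the fit with no block. Of 8 HP1 partners and H4K20 methyltransferases, Pogz, which binds HP1, was lower by 0.21 on the log2 scale (change -0.21, SE 0.06, adjusted p = 0.0322; 11 of 13), lost in 9 of 22 alternatives, and none of 5 Ehmt1 and Ehmt2 partners passed. None of the 8 proliferation markers passed, and their median change was -0.17, against 0.03 for all genes. Their summed level was 369.9 to 1678 FPKM in control and 285 to 1552 FPKM in Dppa2/4 libraries. In Thy1-SSEA1+ cells of days 8, 11 and 14 it was 1678, 1339 and 1089 FPKM in control and 1343, 872 and 935 FPKM with Dppa2/4. It was higher with Dppa2/4 on day 8 in both SSEA1- gates and on day 14 in Thy1+SSEA1- cells. The part of proliferation in the changes of the members was not tested. Cd68, a macrophage gene that other cells also use, was higher with Dppa2/4 by 0.54 (SE 0.18, adjusted p = 0.0390). That call was lost in 12 of 22 alternatives (adjusted p up to 0.651), among them the omission of the library with control-level Dppa2. The summed level of 9 markers of other cell types was 3.78 to 103 FPKM in control and 5.72 to 124 FPKM with Dppa2/4, and their part in the changes of the members was not tested.

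Between gates that differed in Thy1 alone, no member passed the threshold. Between Thy1-SSEA1- and Thy1+SSEA1- cells of the same arm and day (7 pairs), changes of the 10 ran from -0.09 (Suv39h1) to 0.16 (Suv39h2), with a smallest limma adjusted p of 0.790 for Cbx1. Trim28, for one, changed by 0.01 (95% interval -0.40 to 0.41), and was 275 to 536 FPKM (median 362) in Thy1+SSEA1- cells and 155 to 607 FPKM (median 349) in Thy1-SSEA1- cells. Of 15473 genes, 0.0129% were called higher and 0.0129% lower, 2 in each direction, so this comparison called almost nothing of any kind. With the library of control-level Dppa2 dropped, 0 of the 10 members passed as well.

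Gain of SSEA1 went with more Trim28, Cbx5, Cbx1 and Suv39h2. In 5 pairs of Thy1-SSEA1+ and Thy1-SSEA1- cells of the same arm and day, Trim28 rose 1.96-fold, Suv39h2 1.74-fold, Cbx5 1.72-fold and Cbx1 1.63-fold, each in 5 of 5 pairs. The 4 of 10 members called higher compare with 9.55% of 15249 genes, and none of the 10 was called lower, against 12.4% of genes. The median change of the 10 was 0.49, and 0.01 over all genes.

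Among the recruiters and enzymes, Trim28 changed by 0.97 (SE 0.22, limma adjusted p = 0.0234): the values of Thy1-SSEA1- and Thy1-SSEA1+ cells were 607 and 1145 FPKM in control on day 8, 349 and 1119 FPKM in control on day 11, and 343 and 685, 155 and 338, and 249 and 273 FPKM with Dppa2/4 on days 8, 11 and 14. The smallest step was thus that of Dppa2/4 cells on day 14. Suv39h2 changed by 0.80 (SE 0.20, adjusted p = 0.0350), from 6.23 to 16 and from 6.57 to 14.0 FPKM in control on days 8 and 11, and from 6.94 to 9.79, 7.25 to 8.14 and 2.59 to 7.22 FPKM with Dppa2/4 on days 8, 11 and 14. Its partner Suv39h1 did not pass, with a change of 0.16 (95% interval -0.13 to 0.45). Setdb1 was just outside, at 0.44 (95% interval 0.13 to 0.76, adjusted p = 0.0543) and higher in 5 of 5 pairs. Ehmt1 had 0.54 (adjusted p = 0.0744) in 5 of 5 pairs, while Ehmt2 (-0.04) and Setdb2 (0.04) were higher in 3 of 5 and their direction turned when 1 pair was left out, the control day 8 pair for both (0.12 and -0.06) and the Dppa2/4 day 14 pair for Ehmt2 (0.12).

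Of the HP1 genes, Cbx5 changed by 0.78 (SE 0.18, limma adjusted p = 0.0251) and Cbx1 by 0.71 (SE 0.18, adjusted p = 0.0343). Cbx1 went from 49.0 to 124 and from 51.1 to 94.0 FPKM in control on days 8 and 11, and from 50.1 to 66.2, 49.6 to 57.2 and 39.0 to 66.0 FPKM with Dppa2/4 on days 8, 11 and 14. For Cbx5 the control values were 46.5 and 106 FPKM on day 8 and 49.2 and 70.8 FPKM on day 11, and the Dppa2/4 values 48.2 and 64.7, 36.2 and 50.7, and 21.3 and 55.0 FPKM on days 8, 11 and 14. In these 5 pairs the SSEA1- and SSEA1+ values did not overlap for either gene, by a narrow margin for Cbx5. Over all libraries of the 2 gates they did overlap. Control Thy1-SSEA1- cells of day 4, which had no matched SSEA1+ library, held 60.9 FPKM of Cbx1 and 59.8 FPKM of Cbx5. Cbx3 had 0.32 (95% interval -0.05 to 0.69, adjusted p = 0.178).

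All 4 calls rested on single pairs. With the control day 11 or the control day 8 pair left out, none of the members passed. With the Dppa2/4 day 8 pair left out Cbx5 alone passed, without the Dppa2/4 day 14 pair Trim28 and Cbx5 did, and without the Dppa2/4 day 11 pair Trim28 missed the threshold (limma adjusted p = 0.0559). Over these fits the Trim28 change stayed between 0.79 and 1.18, that of Suv39h2 between 0.69 and 0.96, of Cbx1 between 0.55 and 0.83, and of Cbx5 between 0.64 and 0.87, with adjusted p-values of at most 0.115. Without the filter on low values none passed, and without the block of arm and day none passed.

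Proliferation markers moved with these genes: 7 of 8 were higher in SSEA1+ cells (median change 1.01), against 9.55% of all genes. Their summed level was 439 to 945 FPKM in Thy1-SSEA1- and 872 to 1678 FPKM in Thy1-SSEA1+ libraries. Their part in the changes was not tested. Pecam1, an endothelial gene that pluripotent cells also express, rose by 0.96 (SE 0.20, adjusted p = 0.0186), while 4 of the 9 markers of other cell types, Ptprc, Cdh5, Kdr and Krt5, were below 1 FPKM in all 6 Thy1-SSEA1+ libraries and the 9 summed to 8.15 to 95.2 FPKM there, against 3.78 to 37.5 FPKM in Thy1-SSEA1- libraries.

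Partners of the members were called in the same comparison, and in the upward direction in each list, where 9.55% of all genes were called higher and 12.4% lower. Of 8 HP1 partners and H4K20 methyltransferases 5 were higher, led by Uhrf1, which couples H3K9 methylation to the copying of DNA methylation (1.57, SE 0.13, limma adjusted p = 0.00402), Kmt5c, which trimethylates H4K20 in heterochromatin (1.13, SE 0.19), and Chaf1a, a chromatin assembly factor that binds HP1 (1.03, SE 0.14). Of 16 Setdb1 and Trim28 cofactors 3 were higher, the KRAB zinc finger genes Zfp57 (1.05, SE 0.24), which guards imprints, and Zfp568 (1.05, SE 0.16), and Atf7ip2 (0.79, SE 0.19). Of 4 tested Ehmt1 and Ehmt2 partners 3 were higher, Wiz (0.83, SE 0.19), Zfp462 (0.54, SE 0.14) and Cdyl (0.46, SE 0.13). Of 9 demethylases 3 were higher, Jmjd1c (0.69, SE 0.19), Kdm4b (0.61, SE 0.14) and Kdm3b (0.55, SE 0.12). Of these calls Kmt5c passed in all 11 alternatives, and Uhrf1, Chaf1a and Zfp568 in all but the fit with no block. Zfp462 and Cdyl were lost in 7 of 11, including the omission of any single pair, and Jmjd1c in 6 of 11, including any pair but Dppa2/4 day 14. Wiz was lost in 5 of 11, including any pair but control day 8. Zfp57 was lost in 5 of 11 and Atf7ip2 in 5 of 10, both without control day 8, control day 11 or Dppa2/4 day 14. Kdm4b and Kdm3b were each lost in 4 of 11, both without control day 11 or Dppa2/4 day 8, Kdm4b also without Dppa2/4 day 11 and Kdm3b without control day 8.

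From Thy1-SSEA1+ to GFP+ cells, Trim28 and Cbx1 rose most, Setdb1, Suv39h2, Setdb2 and Cbx5 rose less and Suv39h1 fell. In 5 pairs of the same arm and day, Trim28 was 2.23-fold and Cbx1 1.95-fold higher in GFP+ cells, and Suv39h1 was 1.40-fold lower. The 6 of 10 members called higher compare with 19.5% of 15347 genes and the 1 called lower with 25.9%. The median change was 0.31 over the 10 and -0.06 over all genes.

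Trim28 changed by 1.15 (SE 0.17, limma adjusted p = 0.00349): the GFP+ values of 1822 and 1752 FPKM in control on days 11 and 14 and of 1357, 1104 and 808 FPKM with Dppa2/4 on days 8, 11 and 14 each exceeded the Thy1-SSEA1+ value of the same arm and day. They were also above every library of the SSEA1- gates. The GFP+ value of Dppa2/4 cells on day 14 was nevertheless below the Thy1-SSEA1+ values of the control arm. Setdb1 changed by 0.46 (SE 0.09, adjusted p = 0.00908), to 36.6 and 32.4 FPKM in control and 31.6, 32.9 and 31.9 FPKM with Dppa2/4. Those 5 libraries were close together, and overlapped the Thy1-SSEA1+ gate, where control libraries of days 8 and 11 had 36.2 and 31.7 FPKM. Setdb2 changed by 0.31 (SE 0.09, adjusted p = 0.0326), higher in 5 of 5 pairs.

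The Suv39h pair parted. Suv39h1 changed by -0.49 (SE 0.12, limma adjusted p = 0.0174), lower in 5 of 5 pairs, with GFP+ values of 14.9 and 17.3 FPKM in control and 17.8, 18.7 and 18.6 FPKM with Dppa2/4, while Thy1-SSEA1+ values were 23.3, 26.2 and 25.5 FPKM in control and 29.9, 22.1 and 21.4 FPKM with Dppa2/4 on days 8, 11 and 14. The gates did not overlap. Suv39h2 changed by 0.47 (SE 0.16, adjusted p = 0.0478), higher in 4 of 5 pairs, to 12.7 and 10.7 FPKM in control and 13.7, 15.2 and 13 FPKM with Dppa2/4. The exception was control on day 11, where the Thy1-SSEA1+ value was 14.0 FPKM. Suv39h2 thereby made up 38.2% to 46.0% of the FPKM of the pair in GFP+ cells (mean 42.7% ± 3.12, SD, n = 5). It made up 22.9% to 40.7% in Thy1-SSEA1+, 13.6% to 29.8% in Thy1-SSEA1- and 6.48% to 21.9% in Thy1+SSEA1- cells. The Thy1-SSEA1- range overlapped both of the others. From Thy1-SSEA1+ to GFP+ the share rose in 5 of 5 pairs by 15.8 points on average (SD 3.0). Both genes overlap antisense genes, Suv39h1 over 767 exonic bases with Gm14820 and Suv39h2 over 440 with Dclre1c and Gm13184, so their levels are uncertain to that extent.

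Among the HP1 genes Cbx1 changed by 0.96 (SE 0.11, limma adjusted p = 0.00156), the smallest adjusted p of the 10, to 164 and 122 FPKM in control and 122, 151 and 122 FPKM with Dppa2/4, from 57.2 to 124 FPKM (median 66.1) in Thy1-SSEA1+ cells. Cbx5 changed by 0.30 (SE 0.09, adjusted p = 0.0332; 5 of 5), and Cbx3 by 0.26 (95% interval -0.01 to 0.54, adjusted p = 0.106; 4 of 5). Cbx1 accordingly made up 43.0% to 54.8% of the summed HP1 FPKM in GFP+ cells (mean 49.0% ± 4.31, SD, n = 5). It made up 33.3% to 44.7% in Thy1-SSEA1+, 25.6% to 38.6% in Thy1-SSEA1- and 26.9% to 33.3% in Thy1+SSEA1- cells, and the Thy1-SSEA1- range overlapped both of the others. From Thy1-SSEA1+ to GFP+ its share rose in 5 of 5 pairs, by 11.5 points (SD 1.62), and those of Cbx3 and Cbx5 each fell in 5 of 5. The shares are a description and were not tested. Reads of Cbx3 may be split with copies: 8 pseudogenes named Cbx3-ps are annotated, of which the table held 1, at no more than 0.212 FPKM.

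**Figure D3:**
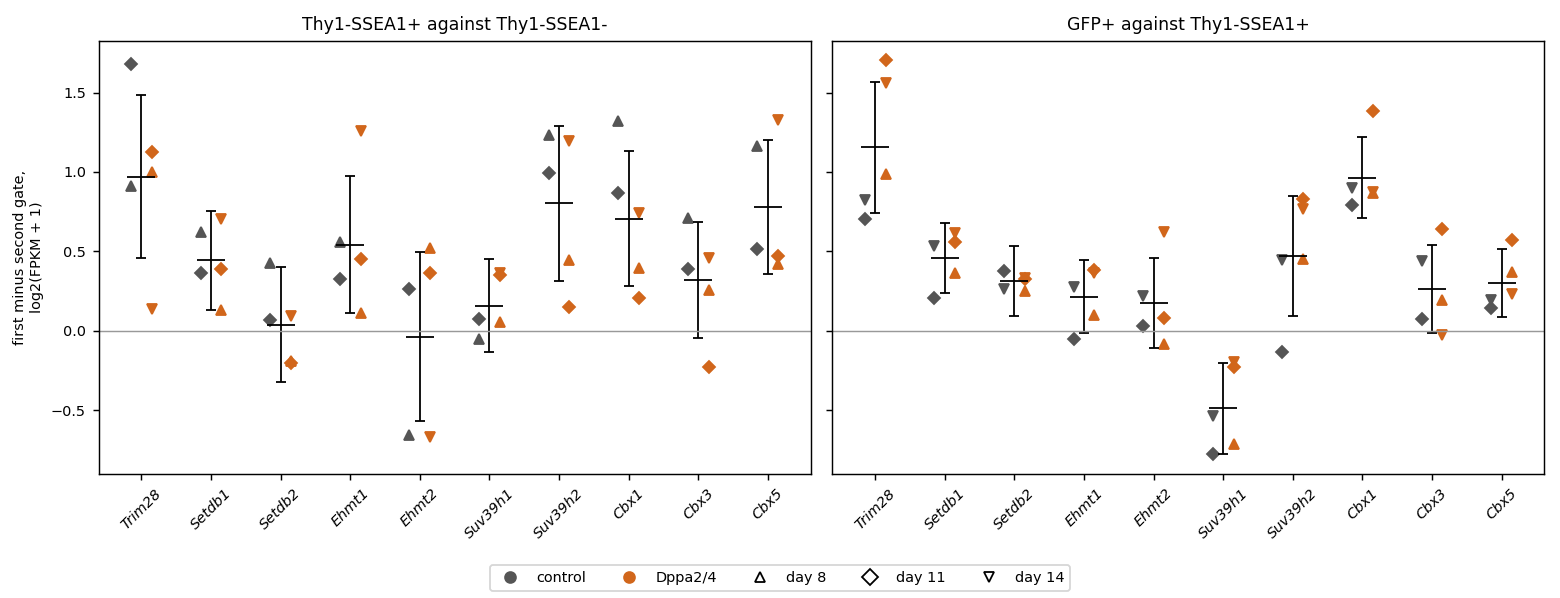
Difference in log2(FPKM + 1) between 2 gates of the same arm and day, 5 pairs a gene, with the fitted mean and its 95% interval. Left, Thy1-SSEA1+ minus Thy1-SSEA1-, where Trim28, Suv39h2, Cbx1 and Cbx5 are above 0 in each pair, and right, GFP+ minus Thy1-SSEA1+, where Trim28 and Cbx1 are highest and Suv39h1 is below 0 in each pair.

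**Figure D4:**
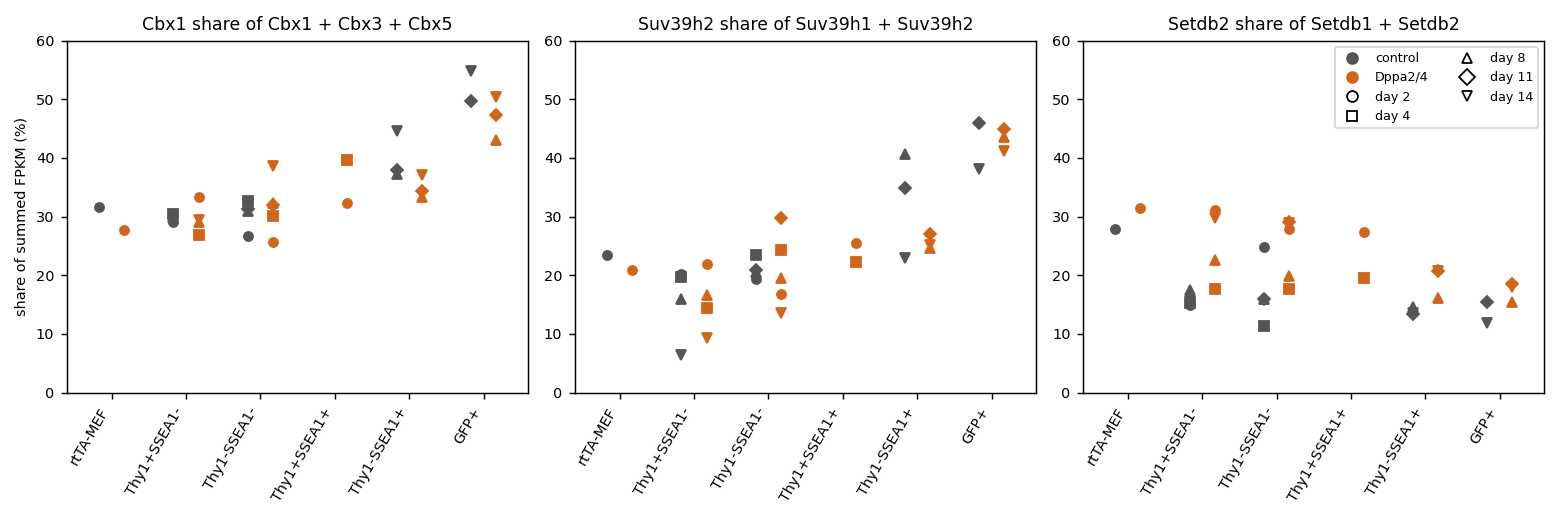
Share of the summed FPKM (%) by gate, arm and day for Cbx1 among the 3 HP1 genes, Suv39h2 among the Suv39h pair and Setdb2 among the Setdb pair. The Cbx1 and Suv39h2 shares are highest in GFP+ cells, at 43.0% to 54.8% and 38.2% to 46.0%, and the Setdb2 share is higher in Dppa2/4 than in control libraries of the same day and gate.

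Trim28, Cbx1 and Setdb1 kept their calls whichever pair was left out (limma adjusted p of at most 0.0135, 0.00700 and 0.0373). Suv39h1 lost its call without the control day 14 pair (adjusted p = 0.0534) or the Dppa2/4 day 8 pair (0.0502). Setdb2 lost it without any 1 of the 5 pairs (0.0598 or higher), and Suv39h2 and Cbx5 without any but the control day 11 pair (0.0965 to 0.144, and 0.0634 to 0.0939). Ehmt1 (0.21, 95% interval -0.02 to 0.45) and Ehmt2 (0.17, 95% interval -0.11 to 0.46) did not pass, and each was higher in 4 of 5 pairs.

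Proliferation markers again moved with the members, 5 of 8 being higher in GFP+ cells (median change 0.46), against 19.5% of all genes. Their summed levels were 1326 to 1663 FPKM in GFP+ and 872 to 1678 FPKM in Thy1-SSEA1+ libraries. Of the 9 markers of other cell types 7 were below 1 FPKM in all GFP+ libraries, Cd68 and Pecam1 being the others, and the 9 summed to 30.2 to 124 FPKM. Their part in the changes was not tested.

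The lists of partners are to be read beside the 19.5% of all genes called higher and 25.9% called lower in GFP+ cells. Of 16 Setdb1 and Trim28 cofactors 9 were higher in GFP+ cells and 2 lower. Zfp57 rose most (1.95, SE 0.23, limma adjusted p = 0.00188), to 251 FPKM from 68.4 FPKM on average, followed by Zfp568 (1.06, SE 0.13) and the nucleosome remodeler Smarcad1 (1.05, SE 0.20). Zfp445, which like Zfp57 acts at imprints (-0.36, SE 0.11, adjusted p = 0.0407), and Pphln1 of the HUSH silencing complex (-0.30, SE 0.09, adjusted p = 0.0344) were lower, but both calls were lost in 8 of 12 alternatives, under quantile normalization and without any single pair for Pphln1, or any but Dppa2/4 day 8 for Zfp445. Of 9 demethylases 5 were higher, with Kdm4b (0.83, SE 0.23), Kdm3b (0.73, SE 0.08) and Kdm4c (0.69, SE 0.17) in front, and Kdm7a was lower (-0.98, SE 0.12, adjusted p = 0.00217). The Kdm4b call was lost in 5 of 12 alternatives, including without control day 14, Dppa2/4 day 11 or Dppa2/4 day 14, and that of Kdm4c in 3 of 12, including without control day 14 or Dppa2/4 day 11. Of 8 HP1 partners and H4K20 methyltransferases 4 were higher, led by Uhrf1 (0.86, SE 0.20), Lbr, which ties heterochromatin to the nuclear envelope (0.78, SE 0.08), and Kmt5c (0.66, SE 0.13). Of 5 Ehmt1 and Ehmt2 partners 1 was higher, Cdyl2, a chromodomain gene (2.24, SE 0.15, adjusted p = 0.000799), at 10.1 FPKM against 1.53 FPKM.

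Within gates that had not gained SSEA1, no member passed a test for change over days. In Thy1+SSEA1- cells (8 libraries) the fitted changes of 9 of 10 members were below 0, from -0.13 per day for Suv39h2 to 0.00 for Ehmt2. The share of all genes below 0 is not given here. The median change was -0.04 per day over the 10 and 0.01 over all genes. Suv39h2 was 9.08, 6.26, 3.66 and 1.37 FPKM on days 2, 4, 8 and 14 in control and 7.45, 2.95, 5.69 and 1.96 FPKM in libraries labelled Dppa2/4. Its change of -0.13 per day (SE 0.03) missed the threshold (limma adjusted p = 0.0656), and passed it when the library labelled Dppa2/4 day 4 Thy1+SSEA1- was left out, at -0.15 per day (adjusted p = 0.0108). Of all genes 1.30% were called higher and 0.800% lower over days in this gate. In control the summed level of the proliferation markers was 1155, 729, 417 and 369.9 FPKM on these days, lower each time. In libraries labelled Dppa2/4 it was 1004, 285, 874 and 477 FPKM, which fell, rose and fell as Suv39h2 did. The part of proliferation in the Suv39h2 change was not tested. In Thy1-SSEA1- cells (9 libraries) changes ran from -0.08 (Ehmt1) to 0.01 (Setdb2) per day, the smallest adjusted p was 0.148 (Cbx5), and 1.68% of genes were called higher and 1.09% lower.

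Over the 30 OSKM libraries several members varied together, as Pearson correlations of log2(FPKM + 1) describe. The points share arms, days, gates and a common scaling of libraries. Setdb1 and Cbx1 correlated at 0.89, Setdb1 and Suv39h2 at 0.89, Suv39h2 and Cbx1 at 0.85, Cbx3 and Cbx5 at 0.84, and Trim28 and Cbx1 at 0.83. Ehmt2 lay between -0.41 with Setdb2 and 0.24 with Trim28, and with its partner Ehmt1 it correlated at 0.03. Once the mean of each gate was removed, Ehmt2 and Trim28 correlated at 0.60, and their differences between arms at 0.63 over 13 pairs. The differences of Ehmt2 and Cbx3 correlated at -0.77 over the same pairs. Suv39h1 correlated at 0.24 with Suv39h2 over all libraries and at 0.73 once each gate's mean was removed.

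The genes most like each member, among 10291 genes with a mean of at least 5 FPKM, were named by the same measure over the same 30 libraries. For Trim28 they were Nup62 (0.97), Znrd1 (0.96) and Eefsec (0.96), for Setdb1 6030458C11Rik, Urb1 and Fubp1 (each 0.94), and for Setdb2 Slc25a16 (0.86), 5830433M19Rik and Fbxo33 (each 0.85). For Cbx1 they were Etaa1, Wdr76 (each 0.97) and Zcchc8 (0.96), for Cbx3 Hnrnpul2 (0.92), Lancl2 (0.90) and Dek (0.88), and for Cbx5 Senp1, Pus7 and Ipo8 (each 0.92). Suv39h2 was most like Cse1l, 6720463M24Rik and the cyclin gene Ccnb1 (each 0.96), Suv39h1 most like Hmgn2 (0.83), Cdc25b (0.82) and Nrarp (0.80). Ehmt1 was most like Sephs1, Zfp207 (0.87 and 0.86) and Pus7 (0.86), Ehmt2 most like Cdc37, ORF61 (each 0.90) and Rpl3-ps1 (0.89). The highest values of Suv39h1, Setdb2 and Ehmt1 were thus lower than those of the other members.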

How the data were processed

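Per the submitters' processing notes, the authors aligned reads with TopHat2 to mm10 and quantified genes with Cuffdiff. The deposited values are FPKM, with no counts, and versions, annotation, strand setting and library scaling are not given in the sources used here. Of 33 value columns 32 were used. A column for Dppa2/4 day 11 Thy1+SSEA1- fits none of the labels and was left out. Control cells of day 11 in this gate are not analysed here. The columns that name arm and day 2 without a gate were assigned to the rtTA-MEF samples, whose titles give day 2 and descriptions day 1. The control day 11 GFP+ library has a description naming another gate and was used as titled.

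Genes that reached 1 FPKM in 2 or more libraries of a fit were tested on log2(FPKM + 1) with limma 3.58.1 in R 4.3.3 (lmFit, eBayes with trend, two-sided), so fold changes are on that scale and understate those of low genes. The arm comparison had day and gate as a block, gate comparisons had arm and day, and changes per day had the arm. P-values were adjusted over all genes tested and called below 0.05. The fits were also run on simulated data with independent errors. That run cannot say whether the calls hold for libraries without replicates. The 10 members, the gene lists and the comparisons were chosen with earlier results of these data known. Context genes are named by size of change among those called, up to 3 for each list and direction, and the 3 genes most like each member are named. Coordinates are GRCm38 from GENCODE vM21 and RefSeq. Depth was implied from the FPKM worth of 1 fragment in 2001 genes with 1 transcript and over 2000 exonic bases, an estimate. Other settings tried were quantile normalization, a pseudocount of 0.1, dropping the filter or raising it to a mean of 5 FPKM, dropping the trend or the block, leaving out pairs, libraries or day 2, and adding the rtTA-MEF pair.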

Additional observations from a re-analysis of the deposited data

Results flagged for a closer look

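The effect of Dppa2/4 on the H3K9 demethylase gene Kdm7a differed between gates. Its change was 1.14 (SE 0.17) over the Thy1-SSEA1+ and GFP+ gates and 0.12 (SE 0.14) over the SSEA1- gates, a difference of 1.02 (SE 0.22, limma adjusted p = 0.0498 over 13 pairs). In Thy1-SSEA1+ cells it was 3.25 to 5.65 FPKM in 3 control and 7.05 to 18.7 FPKM in 3 Dppa2/4 libraries, which did not overlap. The difference lost the threshold in 16 of 21 alternatives, with values of 0.91 to 1.20 and adjusted p-values of 0.0276 to 0.852.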

How the results depend on the processing

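With no block of day, gate or arm, the members called fell to 0 between arms, 0 from SSEA1- to SSEA1+ and 3 from SSEA1+ to GFP+, and the genes called to 805, 1087 and 4000. The count for the effect by gate became 0 without the block and that for loss of Thy1 became 15. Without the filter, 0 members passed from SSEA1- to SSEA1+, and genes called were 0 for loss of Thy1, 0 over days in Thy1+SSEA1- and 228 over days in Thy1-SSEA1- cells. With a mean of at least 5 FPKM, genes called were 2263 between arms, 69 by gate, 8 for loss of Thy1, and 631 and 219 over days in Thy1+SSEA1- and Thy1-SSEA1- cells. A pseudocount of 0.1 gave 287 by gate and 21 for loss of Thy1, quantile normalization 112 and 8, and no trend 0 over days in Thy1+SSEA1- cells. Without day 2, 0 and 7 genes were called over days in these gates. When the library labelled Dppa2/4 day 4 Thy1+SSEA1- was left out, genes called were 344 by gate, 1 for loss of Thy1 and 2769 over days in Thy1+SSEA1- cells, where 1 member passed.

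Leaving out each pair or library in turn, members called ranged from 1 to 4 between arms, 0 to 3 from SSEA1- to SSEA1+, 3 to 6 from SSEA1+ to GFP+ and 0 to 1 over days in Thy1+SSEA1- cells. Genes called ranged from 2987 to 4214 between arms, 13 to 344 by gate, 0 to 7 for loss of Thy1, 1256 to 3307 and 4548 to 6408 for the later gates, 0 to 2769 over days in Thy1+SSEA1- and 26 to 330 in Thy1-SSEA1- cells. From SSEA1- to SSEA1+ Setdb2 ran from -0.058 to 0.10 and Ehmt2 from -0.17 to 0.12. Under quantile normalization genes called higher and lower became 1971 and 2107 between arms (2629 and 1304 as deposited), 44 and 68 by gate (86 and 85), 3614 and 3030 in GFP+ cells (2988 and 3975) and 93 and 127 over days in Thy1+SSEA1- cells (192 and 118), and the median of all genes in GFP+ cells moved from -0.06 to 0.06. The causes were not tested. Of 77 calls of context genes 32 passed under every alternative run and none reversed. Pairs were matched by day, gate and arm, since the labels number no replicates, and the effect of dropping this matching is that given first.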

Other observations

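In control Thy1-SSEA1+ cells 8 members were successively lower on days 8, 11 and 14, with 1 library a day and no test. The share of all genes that fell in this order is not given here. Suv39h2 was 16, 14.0 and 7.57 FPKM, Setdb1 36.2, 31.7 and 22.1 FPKM, Cbx1 124, 94.0 and 64.7 FPKM, Cbx3 103, 82.5 and 38.9 FPKM, Cbx5 106, 70.8 and 41.2 FPKM, and Ehmt1 34.8, 31.0 and 19.4 FPKM. Setdb2 had 6.23, 4.90 and 3.48 FPKM, and Trim28 1145, 1119 and 991 FPKM. Ehmt2 went the other way, with 33.1, 36.8 and 53.1 FPKM. The summed proliferation markers of these control libraries were 1678, 1339 and 1089 FPKM, and their part was not tested. In the arm overexpressing Dppa2 and Dppa4, Trim28, Setdb1, Suv39h2 and Cbx3 fell in the same order in this gate. The others of the 8 did not. Cbx1 was 66.2, 57.2 and 66.0 FPKM there, and Cbx5 64.7, 50.7 and 55.0 FPKM. Ehmt1 was 31.4, 19.5 and 24.1 FPKM, and Setdb2 4.70, 5.74 and 5.32 FPKM. Ehmt2 did not rise in that arm, with 52.7, 25.9 and 26.5 FPKM.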
